A study of Arabidopsis thaliana with 12 samples.

Results

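The genes described here are 35 loci of the jasmonate pathway of Arabidopsis thaliana, taken by locus code from the 32833 loci counted in the study. They comprise 12 genes of jasmonate synthesis, the conjugating enzyme JAR1, 2 genes of hormone turnover, the receptor gene COI1, JAZ1 to JAZ12, 4 genes of bHLH transcription factors, and the response genes VSP1, VSP2 and PDF1.2a. They were picked by locus code and pathway role with earlier results of these data known, and no expression threshold was applied. Of the 35 loci, 32 held enough reads for a test, among 19236 tested loci in all. The other 3, MYC2, AOC1 and AOC2, are described at the end of the account.

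The study sequenced polyadenylated RNA from hypocotyls harvested with the upper 5 mm of the root of 3-week-old plants grown in long days, with 3 biological replicates of each of 4 genotypes. The quintuple mutant, called pxf er erl2, carries pxy-3, pxl1-1, pxl2-1, er-105 and erl2-1. The triple mutant, called pxf, carries pxy-3, pxl1-1 and pxl2-1, alleles of the receptor kinase gene PXY and its relatives PXL1 and PXL2. The double mutant, called er erl2, carries er-105 and erl2-1, alleles of the receptor kinase genes ER and ERL2, and the wild type is Columbia-0. PXY and ER are receptors that act in the cambium, the meristem that thickens hypocotyl and root. All lines came from laboratory stocks, and each genotype is represented by a single line. The labels call the replicates biological without saying how plants were pooled. The p-values therefore weigh each difference against the spread between libraries, estimated from all 4 genotypes together.

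Jasmonate is made from linolenic acid by lipoxygenases (LOX), allene oxide synthase (AOS), allene oxide cyclases (AOC) and the reductase OPR3, followed by shortening of the side chain in peroxisomes. JAR1 joins the acid to isoleucine, and this conjugate lets the F-box protein COI1 bind JAZ repressors, which are then degraded. The MYC bHLH factors are freed in this way and switch on wound-response genes, including many JAZ genes and the synthesis genes themselves.

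Library totals ran from 10507590 to 14716123 counts. ER averaged 9.33 CPM, read counts scaled by library size, in pxf er erl2 and 9.57 CPM in er erl2, against 38.3 CPM in wild type. PXY averaged 77.3 CPM in pxf er erl2 and 22.9 CPM in pxf, against 249 CPM in wild type. PXL2, with 2 to 14 counts per library, averaged 0.262 CPM in pxf er erl2 and 0.462 CPM in pxf, against 0.942 CPM in wild type, and was called lower in pxf er erl2 (adjusted p = 0.0283) but not in pxf (0.184). PXL1 and ERL2 held too few reads for a test and check no label. Genes of the xylem, phloem and cambium marker lists were detected in every genotype, at levels that differed. The 2 cambium genes summed to 234.2 to 280.3 CPM in pxf er erl2 and 229.9 to 247.9 CPM in pxf. They summed to 294.1 to 308.5 CPM in er erl2, against 202.2 to 245.2 CPM in wild type. Of these, 2 were called higher in er erl2, 1 in pxf er erl2 and 0 in pxf. The 5 xylem genes summed to 967.5 to 1029 CPM in pxf er erl2, 963.6 to 1004 CPM in pxf and 1203 to 1881 CPM in er erl2, against 1243 to 1355 CPM in wild type, and 3 of them were called lower in both pxf er erl2 and pxf and 1 higher in pxf er erl2. The 3 phloem genes summed to 362.2 to 489 CPM in pxf er erl2, 320.9 to 371.9 CPM in pxf and 229.4 to 293.9 CPM in er erl2, against 204.2 to 236.1 CPM in wild type, and 2 of them were called higher in both pxf er erl2 and pxf and 1 lower in pxf. Leaf transcripts were also present: 18 photosynthesis genes summed to 6128 to 9639 CPM in pxf er erl2, 5659 to 7557 CPM in pxf and 3675 to 4098 CPM in er erl2, against 1615 to 2312 CPM in wild type. Within a genotype, no library was the repeat of another.

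Loss of the receptors left most jasmonate genes without a call, and the largest called changes against wild type were in the response genes and in JAZ3. Genes were called at an adjusted p under 0.05 in edgeR's quasi-likelihood test with Benjamini-Hochberg adjustment over all 19236 loci. Of 32 members, 6 were called in pxf er erl2 against wild type, 3 higher and 3 lower, while 36.3% of all tested loci were called, 19.9% higher and 16.4% lower. In pxf against wild type 6 members were called, 2 higher and 4 lower, beside 21.0% of all loci, 13.0% higher and 7.97% lower. In er erl2 against wild type 5 members were called, 2 higher and 3 lower, beside 18.8% of all loci, 10.3% higher and 8.44% lower. The member shares were 18.8%, 18.8% and 15.6% in that order, near or below the share of all loci in each comparison. These comparisons share the 3 wild-type libraries. In bulk tissue, a change in the number of cells that express a gene cannot be told apart from a change in RNA per cell.

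The median log2 fold change of the 32 members was -0.08 in pxf er erl2, -0.22 in pxf and -0.23 in er erl2 against wild type, beside medians of -0.003, 0.0065 and 0.0211 over all tested loci. Among single libraries, the count in er erl2 dropped to 2 or 3 calls without er erl2 replicate 1, 2 or 3 or without wild-type replicate 1 or 3, and reached 8 and 10 calls without pxf replicate 3 and without pxf er erl2 replicate 3. Of the calls in pxf, 2 were left when wild-type replicate 1 or 3 was omitted and 3 when pxf replicate 3 was. For pxf er erl2, omitting pxf replicate 3 gave 11 calls, and omitting its own replicate 3 gave 10.

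**Figure D1:**
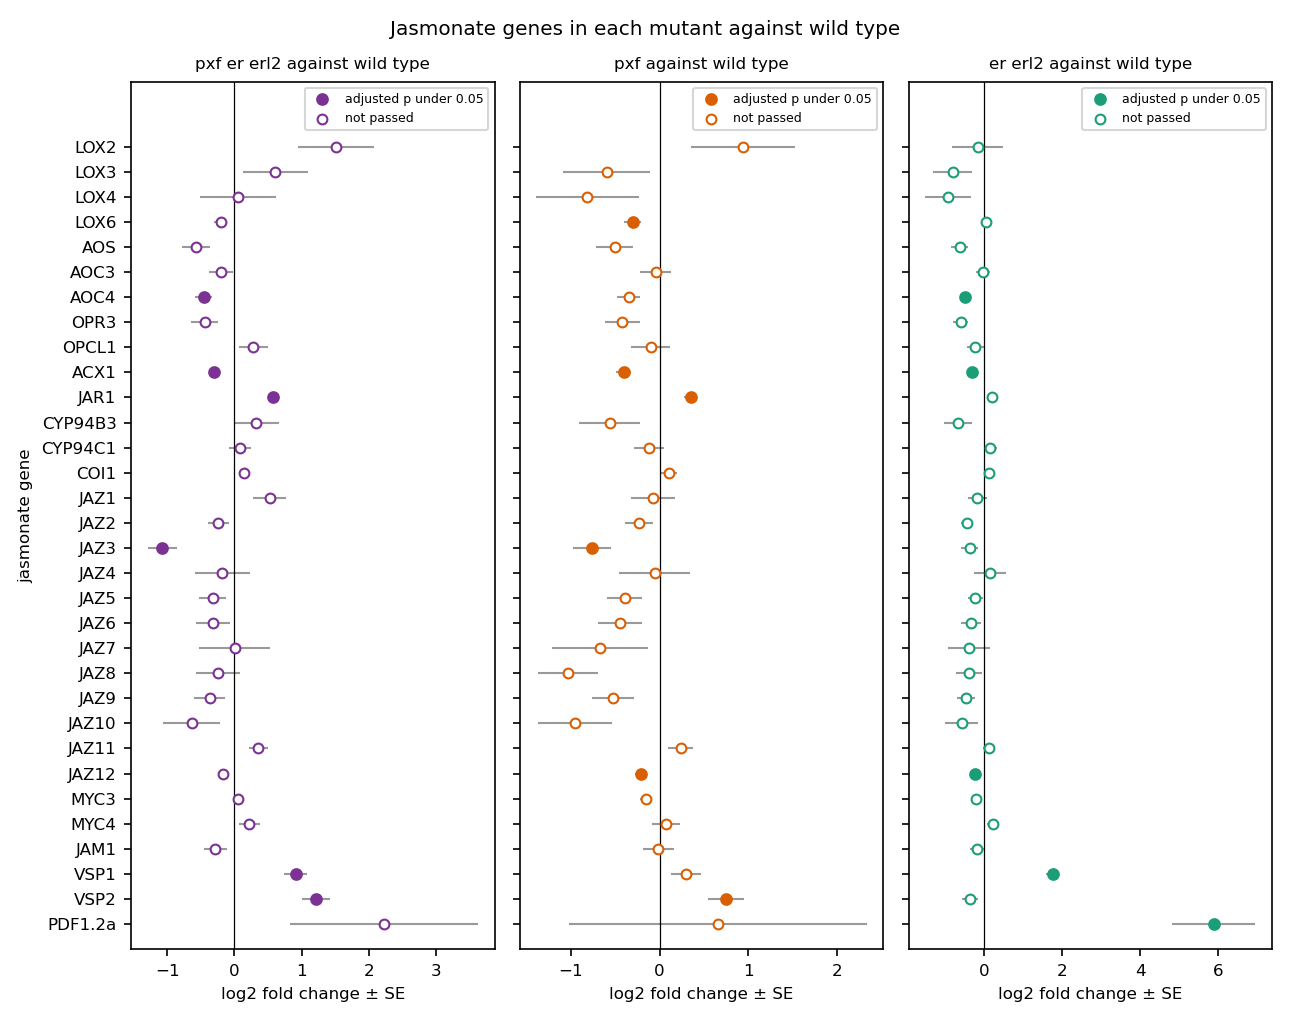
Log2 fold change ± SE of the 32 tested jasmonate genes in each mutant against wild type, 3 libraries per genotype, with filled points for an adjusted p under 0.05. The horizontal scales differ between panels; VSP1 and PDF1.2a lie far to the right in er erl2, while JAZ3 is the lowest called gene in pxf and pxf er erl2.

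The promoters of ACX1, JAZ3 and the 3 response genes are shown first, because the factors of this pathway bind known motifs there. They were picked among the called genes after the values were seen. Each is the 300 bases before the annotated start of the gene, in the RefSeq annotation of assembly TAIR10.1, read 5′ to 3′ on the strand of the gene. In the sequences of ACX1, JAZ3 and PDF1.2a capitals mark a G-box, CACGTG, the site of MYC factors, or a GCC-box, GCCGCC, the site of ethylene response factors. Both motifs were searched on both strands.
ACX1 promoter, chr4:9428896-9429195, minus strand: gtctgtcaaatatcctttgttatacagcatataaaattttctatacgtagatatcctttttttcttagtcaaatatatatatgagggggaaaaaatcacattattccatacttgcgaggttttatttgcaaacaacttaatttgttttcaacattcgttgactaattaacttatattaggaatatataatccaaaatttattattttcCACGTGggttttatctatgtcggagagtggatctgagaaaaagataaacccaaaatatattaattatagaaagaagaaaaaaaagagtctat
JAZ3 promoter, chr3:6119407-6119706, plus strand: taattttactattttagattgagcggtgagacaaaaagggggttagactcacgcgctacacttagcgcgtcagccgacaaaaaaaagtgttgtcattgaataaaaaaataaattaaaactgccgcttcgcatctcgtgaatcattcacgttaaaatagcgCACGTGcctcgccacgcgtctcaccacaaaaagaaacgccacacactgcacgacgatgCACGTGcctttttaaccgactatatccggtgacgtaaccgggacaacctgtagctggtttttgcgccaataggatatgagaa
PDF1.2a promoter, chr5:17907639-17907938, minus strand: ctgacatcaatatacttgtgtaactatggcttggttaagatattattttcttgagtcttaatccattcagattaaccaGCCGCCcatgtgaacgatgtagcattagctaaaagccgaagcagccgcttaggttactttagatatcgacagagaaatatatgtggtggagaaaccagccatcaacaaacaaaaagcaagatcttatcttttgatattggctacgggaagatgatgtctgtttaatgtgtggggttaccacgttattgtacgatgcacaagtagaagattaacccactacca
A G-box was found in 6 of the 35 member promoters, those of AOS, ACX1, JAZ2, JAZ3, JAZ7 and JAZ8, and in 7.09% of the 27443 promoters of protein-coding genes. JAZ3 held 2 G-boxes, starting 140 and 82 bases before the gene, and 275 promoters in all held 2 or more. PDF1.2a was the 1 member with a GCC-box, a motif found in 2.26% of all promoters. The JAR1 window held neither motif. A match or the lack of one describes these exact letters only, and variants of the motifs were not searched.

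VSP1 (AT5G24780) and VSP2 (AT5G24770) encode vegetative storage proteins, acid phosphatases that accumulate after wounding. The genes lie on the minus strand of chromosome 5, 5365 bases apart, and neither promoter window held a G-box or a GCC-box. In the next pair of sequences capitals mark the longest run of letters that both windows share, 23 bases.
VSP1 promoter, chr5:8509202-8509501, minus strand: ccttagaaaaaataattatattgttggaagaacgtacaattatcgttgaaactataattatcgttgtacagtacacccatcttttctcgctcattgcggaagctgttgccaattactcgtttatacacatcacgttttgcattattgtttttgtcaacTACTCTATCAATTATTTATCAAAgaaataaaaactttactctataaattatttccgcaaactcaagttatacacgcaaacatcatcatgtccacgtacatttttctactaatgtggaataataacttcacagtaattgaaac
VSP2 promoter, chr5:8502225-8502524, minus strand: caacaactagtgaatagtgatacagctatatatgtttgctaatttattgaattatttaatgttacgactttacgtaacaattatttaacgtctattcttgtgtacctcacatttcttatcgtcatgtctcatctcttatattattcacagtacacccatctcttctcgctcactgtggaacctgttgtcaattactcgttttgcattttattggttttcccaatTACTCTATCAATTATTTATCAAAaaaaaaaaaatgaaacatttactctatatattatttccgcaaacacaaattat
The run starts 142 bases before VSP1 and 76 bases before VSP2. Their longest transcripts share 5 stretches of 50 bases, 0.394% of those of VSP1, so few reads could have come from either gene alike.

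Of the neighbouring VSP genes, only VSP1 was called in er erl2, while both were called higher in pxf er erl2. VSP1 had 184, 191 and 178 CPM in er erl2, against 51.8, 63.8 and 47.4 CPM in wild type. The 3 er erl2 libraries were close to each other and all above wild type, and the log2 fold change was 1.76 ± 0.17 (SE, adjusted p = 4.85e-05). VSP1 was also higher in pxf er erl2, with 90.1, 91.5 and 125 CPM and a log2 fold change of 0.91 ± 0.17 against wild type (adjusted p = 0.00197). In pxf it had 51.2, 75.8 and 73.6 CPM, which overlapped wild type, and 0.30 ± 0.17 (adjusted p = 0.244).

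VSP2 showed a different order of genotypes. It had 1859, 1989 and 2377 CPM in pxf er erl2, 1221, 1973 and 1302 CPM in pxf and 679, 701 and 709 CPM in er erl2, against 798, 1153 and 729 CPM in wild type. Both genotypes without PXY, PXL1 and PXL2 lay above every wild-type library, and er erl2 lay just below all of them. The log2 fold change against wild type was 1.22 ± 0.20 in pxf er erl2 (adjusted p = 0.00107) and 0.75 ± 0.20 in pxf (adjusted p = 0.0257). In er erl2 it was -0.36 ± 0.20 (adjusted p = 0.249), so VSP2 was not called there while VSP1 was the member with the smallest p. The pxf call of VSP2 did not survive the omission of pxf replicate 2 (adjusted p = 0.0625) or of wild-type replicate 1 (0.083) or 3 (0.0884). The median leaf transcript sum was 8524 CPM in pxf er erl2, 6016 CPM in pxf and 3865 CPM in er erl2, against 2225 CPM in wild type, and its part in the VSP values was not tested.

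PDF1.2a (AT5G44420) encodes a plant defensin, an antifungal peptide that answers to jasmonate together with ethylene. It had 13.0, 39.4 and 7.90 CPM in er erl2, against 0.284, 0 and 0.679 CPM in wild type. In wild type these values rest on 3, 0 and 8 counts, while the er erl2 libraries held 157, 484 and 90 counts. All er erl2 libraries stood above all wild-type libraries, with a log2 fold change of 5.89 ± 1.07 (adjusted p = 0.00449). PDF1.2a in pxf er erl2 had 0.546, 0.830 and 3.47 CPM, and in pxf 0.214, 1.17 and 0.154 CPM, neither called against wild type. The paralogous defensin gene AT5G44430, looked at after the values were seen, shares 3 stretches of 50 bases with PDF1.2a and held 20 counts in the 3 er erl2 libraries together.

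**Figure D2:**
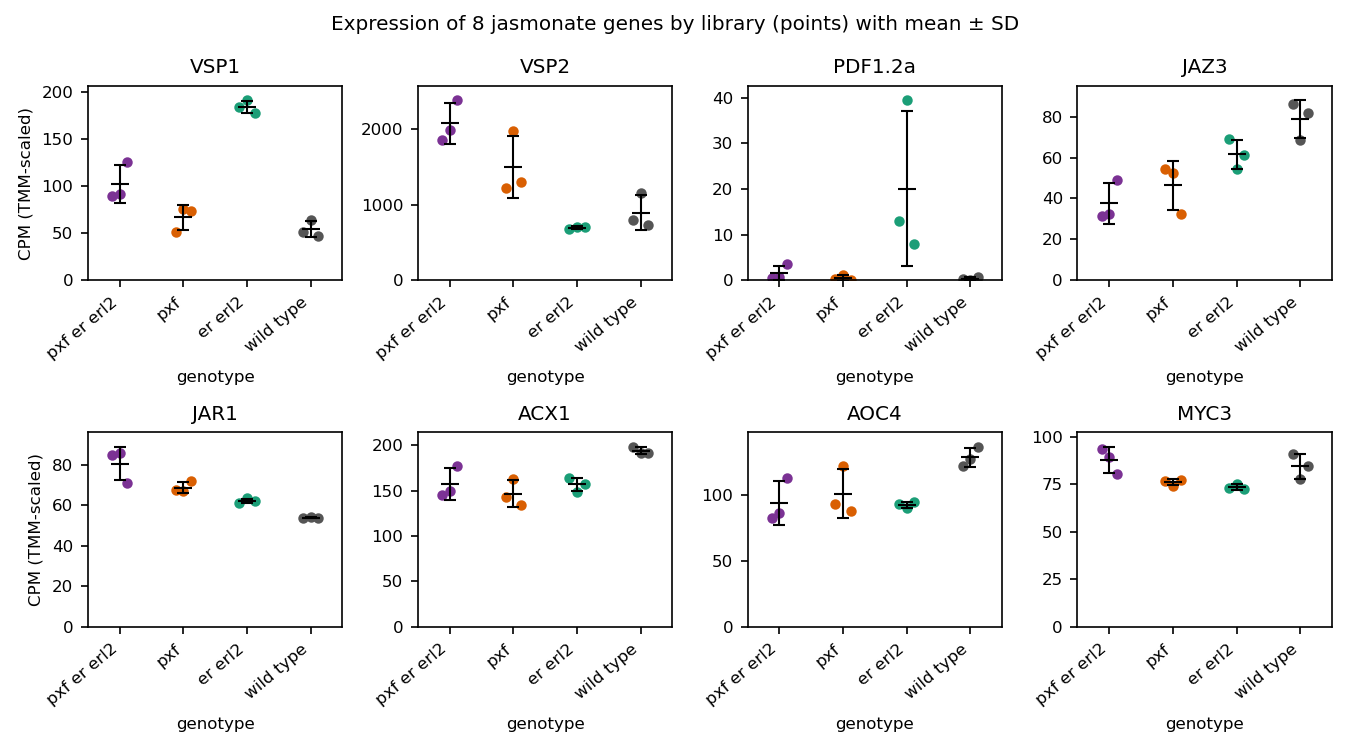
TMM-scaled CPM of 8 jasmonate genes, with 1 point per library and bars for mean ± SD of the 3 libraries of each genotype, on linear axes that start at 0. VSP1 and PDF1.2a are highest in er erl2, VSP2 and JAR1 are highest in pxf er erl2, and JAZ3 and ACX1 are highest in wild type.

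The region around PDF1.2a on chromosome 5 also changed in er erl2. Of the 40 tested genes nearest to PDF1.2a, 20 on each side, 8 were called and changed at least 4-fold between er erl2 and wild type, and as many were found around 0.521% of tested genes. In a wider window of 120 neighbours, 18 changed at least 4-fold in er erl2, 14 lower and 4 higher, against 1 in pxf er erl2. Around VSP1, 6 of 120 neighbours did so in pxf er erl2 and 7 in er erl2. Genome-wide, 3.17% of nuclear genes changed that much in pxf er erl2 and 1.79% in er erl2. Of the 40 tested genes nearest to VSP1, 9 were called at any size in pxf er erl2, beside 36.3% of all loci. In er erl2, 14 of these 40 were called, beside 18.8%. The myrosinase genes TGG1 and TGG2 are a tandem pair on chromosome 5, nearer in locus order to VSP1 than to PDF1.2a. They went opposite ways in er erl2. TGG2 had 10.3 ± 1.52 CPM in er erl2 and 825 ± 83.6 CPM in wild type. TGG1 had 1394 ± 45.4 CPM in er erl2 and 763 ± 74.1 CPM in wild type (SD, n = 3 each). The part of the neighbourhood in the PDF1.2a and VSP1 values was not tested.

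**Figure D3:**
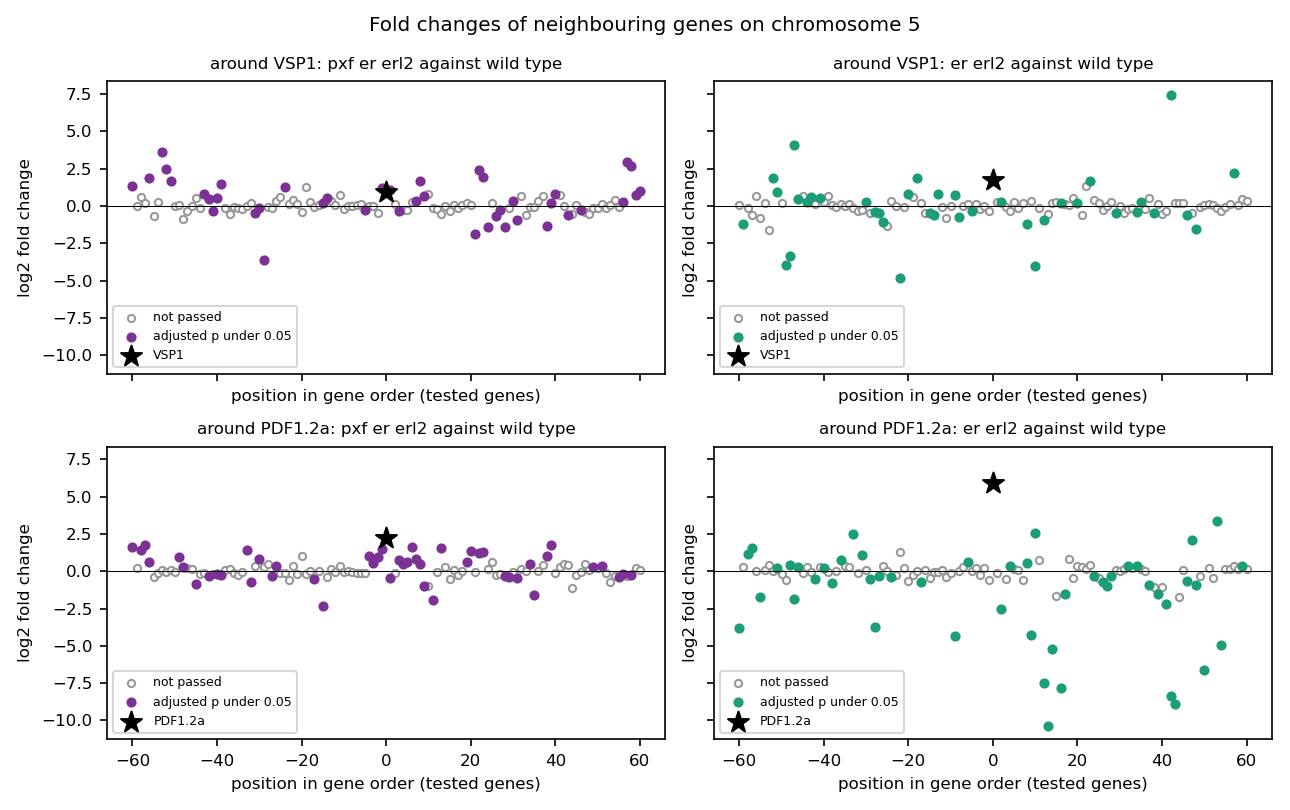
Log2 fold change of up to 60 tested genes on each side of VSP1 (upper panels) and PDF1.2a (lower panels), in pxf er erl2 (left) and er erl2 (right) against wild type, with filled points for an adjusted p under 0.05. In er erl2, 14 neighbours of PDF1.2a lie at least 4-fold below wild type, and in pxf er erl2 1 does.

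Of the 12 synthesis genes 10 were tested, and 2 (20%) were called lower in each mutant, beside 16.4% of all loci in pxf er erl2, 7.97% in pxf and 8.44% in er erl2. ACX1 (AT4G16760), a peroxisomal acyl-CoA oxidase of the side-chain steps, was lower in all of them. It had 145, 150 and 177 CPM in pxf er erl2, 143, 163 and 135 CPM in pxf and 164, 149 and 158 CPM in er erl2, against 198, 192 and 192 CPM in wild type. Every mutant library lay below every wild-type library. ACX1 had log2 fold changes of -0.30 ± 0.08 in pxf er erl2 (adjusted p = 0.0141), -0.40 ± 0.08 in pxf (adjusted p = 0.0054) and -0.31 ± 0.08 in er erl2 (adjusted p = 0.0236), where the 3 share the wild-type libraries. The ACX1 call in pxf er erl2 ended when replicate 1 (adjusted p = 0.0675) or 2 (0.0603) of that genotype was left out. The call in er erl2 ended when er erl2 replicate 2 (0.0844), wild-type replicate 1 (0.0671) or wild-type replicate 2 (0.0522) was left out.

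AOC4 (AT1G13280), one of the allene oxide cyclases, had 82.8, 86.0 and 113 CPM in pxf er erl2, 93.0, 122 and 88.0 CPM in pxf and 93.2, 90.1 and 94.4 CPM in er erl2, against 122, 128 and 136 CPM in wild type. The pxf er erl2 and er erl2 libraries were below wild type, and 1 pxf library was level with the lowest wild-type library. The log2 fold change was -0.46 ± 0.13 in pxf er erl2 (adjusted p = 0.0175), -0.48 ± 0.13 in er erl2 (adjusted p = 0.0264) and, not called, -0.35 ± 0.13 in pxf (adjusted p = 0.0789). Leaving out pxf er erl2 replicate 1 (adjusted p = 0.0701) or 2 (0.0708) or wild-type replicate 3 (0.0588) ended the call in pxf er erl2. Leaving out any er erl2 library (0.0518 to 0.0783), or the wild-type replicate 2 (0.0605) or 3 (0.0802), ended that in er erl2.

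LOX6 (AT1G67560), a lipoxygenase, had 65.0, 69.2 and 79.5 CPM in pxf er erl2, 63.7, 74.0 and 61.3 CPM in pxf and 90.3, 85.4 and 80.1 CPM in er erl2, against 88.8, 73.1 and 83.5 CPM in wild type. The call was in pxf, which overlapped wild type, and the log2 fold change of -0.30 ± 0.10 passed narrowly (adjusted p = 0.0438). It failed in 7 of the 12 fits that left out 1 library, those lacking pxf replicate 1 (adjusted p = 0.134) or 3 (0.155), wild-type replicate 1 (0.156) or 3 (0.109), er erl2 replicate 1 (0.0528) or 2 (0.0588), and pxf er erl2 replicate 2 (0.0556).

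AOS (AT5G42650) and OPR3 (AT2G06050), which make and reduce the ring precursors, were not called in any comparison. AOS had log2 fold changes of -0.57 ± 0.21 in pxf er erl2 (adjusted p = 0.0551), -0.50 ± 0.21 in pxf (0.117) and -0.62 ± 0.21 in er erl2 (0.0664). For OPR3 the same values were -0.44 ± 0.20, -0.42 ± 0.20 and -0.59 ± 0.20, with adjusted p of 0.115, 0.165 and 0.0663. AOC3 and the ligase gene OPCL1 were not called either, with estimates of -0.20 and 0.28 in pxf er erl2, -0.04 and -0.10 in pxf and -0.02 and -0.21 in er erl2.

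LOX3 (AT1G17420) and LOX4 (AT1G72520), wound-induced lipoxygenases, varied widely between replicates. LOX3 had 67.2, 83.6 and 85.0 CPM in pxf er erl2 and 44.0, 45.5 and 12.5 CPM in pxf, with 38.2, 25.2 and 25.4 CPM in er erl2 and 56.3, 24.5 and 73.7 CPM in wild type. LOX4 had 58.3, 80.5 and 149 CPM in pxf er erl2, 66.6, 73.1 and 16.9 CPM in pxf and 68.4, 37.6 and 39.9 CPM in er erl2, against 89.2, 54.6 and 132 CPM in wild type. Within pxf the third library held less than the other 2 for both genes, and within wild type the second did. Neither gene passed the test in any comparison.

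LOX2 (AT3G45140), a plastid lipoxygenase of leaves, was near the limit of detection. It had 2.50, 0.905 and 5.50 CPM in pxf er erl2, 2.00, 1.86 and 2.07 CPM in pxf and 1.07, 1.22 and 0.439 CPM in er erl2, against 0.853, 1.55 and 0.679 CPM in wild type, from 5 to 65 counts per library. Its log2 fold change against wild type was 1.51 ± 0.57 in pxf er erl2 (adjusted p = 0.0555) and 0.94 ± 0.58 in pxf (adjusted p = 0.279). The leaf transcript sum was likewise highest in pxf er erl2 and next in pxf. Within pxf er erl2 it ran in the reverse order of LOX2, at 8524, 9639 and 6128 CPM, and in er erl2 it was above wild type while LOX2 averaged 0.911 CPM in er erl2 and 1.03 CPM in wild type. Its part in the LOX2 values was not tested.

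JAR1 (AT2G46370) rose where PXY, PXL1 and PXL2 were lost. It had 84.8, 86.0 and 71.1 CPM in pxf er erl2, 67.4, 66.9 and 72.0 CPM in pxf and 61.2, 63.4 and 62.2 CPM in er erl2, against 53.6, 54.4 and 53.8 CPM in wild type. The 3 wild-type libraries lay within 1 CPM of each other and below every mutant library. The log2 fold change was 0.58 ± 0.07 in pxf er erl2 (adjusted p = 5.29e-05) and 0.35 ± 0.07 in pxf (adjusted p = 0.00438). In er erl2 it was 0.21 ± 0.07 and was not called (adjusted p = 0.0604). The JAR1 calls in pxf er erl2 and pxf held in all 19 alternative fits, with adjusted p of at most 0.00243 and 0.024.

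The turnover genes CYP94B3 (AT3G48520) and CYP94C1 (AT2G27690), cytochrome P450 enzymes that oxidise the isoleucine conjugate, were not called in any mutant against wild type. CYP94C1 ranged from 17.6 to 30.5 CPM over the 12 libraries. CYP94B3 had 12.3, 9.50 and 11.7 CPM in pxf er erl2, 8.62, 5.58 and 3.76 CPM in pxf and 4.87, 5.12 and 6.93 CPM in er erl2, against 13.5, 5.20 and 8.07 CPM in wild type. The wild-type libraries spanned nearly the whole range. COI1 (AT2G39940) stayed between 45.5 and 57.5 CPM in the 12 libraries, with log2 fold changes of 0.11 to 0.15 in the mutants and no call.

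Among the 12 JAZ genes, JAZ3 (AT3G17860) carried the clearest change, and it was lower without PXY, PXL1 and PXL2. JAZ3 had 31.3, 32.3 and 49.0 CPM in pxf er erl2, 54.4, 52.3 and 32.5 CPM in pxf and 68.9, 54.3 and 61.3 CPM in er erl2, against 86.3, 68.7 and 81.5 CPM in wild type. All pxf er erl2 and pxf libraries were below the lowest wild-type library, while er erl2 overlapped it. The xylem sum was lower and the phloem sum higher in the same 2 genotypes, and their part in the JAZ3, JAR1 and VSP2 values was not tested. JAZ3 had log2 fold changes of -1.07 ± 0.22 in pxf er erl2 (adjusted p = 0.00338), -0.76 ± 0.21 in pxf (adjusted p = 0.0299) and -0.36 ± 0.21 in er erl2 (adjusted p = 0.275). The JAZ3 call in pxf er erl2 held in all 19 alternative fits. The call in pxf failed when pxf replicate 3 (adjusted p = 0.0737), wild-type replicate 1 (0.0873) or wild-type replicate 3 (0.0832) was dropped.

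JAZ12 (AT5G20900) was slightly lower in 2 mutants. It had 157, 171 and 142 CPM in pxf and 155, 156 and 152 CPM in er erl2, against 188, 171 and 185 CPM in wild type. The log2 fold change was -0.21 ± 0.07 in pxf (adjusted p = 0.0404) and -0.24 ± 0.07 in er erl2 (adjusted p = 0.0277). Every er erl2 library was below wild type, and pxf replicate 2 came close to wild-type replicate 2. JAZ12 in pxf er erl2 had 157, 159 and 168 CPM and -0.17 ± 0.07 (adjusted p = 0.0667). Dropping any er erl2 library (adjusted p of 0.0577 to 0.0657), or the wild-type replicate 1 (0.0894) or 3 (0.0728), ended the JAZ12 call in er erl2. In pxf it was lost in 8 of the 12 fits that left out 1 library. These were the fits without pxf replicate 1 (0.101) or 3 (0.164), wild-type replicate 1 (0.127) or 3 (0.107), er erl2 replicate 1 (0.0562) or 2 (0.0541) and pxf er erl2 replicate 1 (0.053) or 2 (0.0539).

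The other JAZ genes passed in no comparison, and most of their estimates against wild type were below 0. Of all 12 JAZ genes, 9 had a negative log2 fold change in pxf er erl2, 11 in pxf and 10 in er erl2, with medians of -0.24, -0.42 and -0.34. Against wild type, JAZ8 in pxf was the nearest of these to a call, with 17.2, 17.1 and 6.14 CPM in pxf, against 30.1, 22.2 and 30.5 CPM in wild type (log2 fold change -1.03 ± 0.34, adjusted p = 0.0568). JAZ1 came nearer in pxf er erl2 against er erl2 (0.70 ± 0.25, adjusted p = 0.0528). JAZ10, which also yields splice forms that resist degradation, had 40.7, 49.7 and 93.3 CPM in pxf er erl2, 62.2, 59.8 and 24.7 CPM in pxf and 76.0, 57.9 and 58.6 CPM in er erl2, against 90.1, 65.6 and 129 CPM in wild type. JAZ2, JAZ5, JAZ6 and JAZ9 had estimates between -0.52 and -0.21 in the 3 mutants. JAZ4 rested on 9 to 26 counts per library. JAZ1 and JAZ11 had positive estimates in pxf er erl2, 0.53 ± 0.25 (adjusted p = 0.122) and 0.36 ± 0.15 (adjusted p = 0.0721). Summed over the 12 genes, the JAZ level was 1054 to 1517 CPM in pxf er erl2, 759 to 1251 CPM in pxf and 1071 to 1222 CPM in er erl2, against 1206 to 1545 CPM in wild type. These ranges overlap.

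The replicates of a genotype differed in these genes more than in most others, and together. In pxf the third library was the lowest of its genotype in 24 of 32 members and in 11 of 12 JAZ genes, while it was the lowest in 32.5% of all tested loci. The third pxf er erl2 library was the highest in 26 of 32 members and in 12 of 12 JAZ genes, beside 40.4% of all loci. JAZ7 shows the spread most plainly, with 22.8, 9.92 and 3.15 CPM in the 3 pxf libraries. The wild-type replicate 2 was lowest in 22 of 32 members and in 11 of 12 JAZ genes, beside 31.2% of all loci. The median coefficient of variation of the members was 17.2% in pxf er erl2, 25.5% in pxf, 10.9% in er erl2 and 12.7% in wild type, beside 9.98%, 8.53%, 8.77% and 9.6% for all tested loci.

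A list of 17 genes induced early by wounding and touch split the libraries of pxf and pxf er erl2 in the same way. The third pxf library was lowest in 15 of the 17 and the third pxf er erl2 library highest in 12. In er erl2, replicate 1 was highest in 12 of the 17 and in 17 of 32 members, beside 32.2% of all loci. Replicate 2 of er erl2 was lowest in 11 of the 17 (32.9% of all loci), but replicate 3 in 16 of 32 members (34.1%). In wild type, replicate 3 was lowest in 9 of the 17 (38.7% of all loci) and replicate 2 in 7 (31.2%). The summed level of the 17 genes was 1490, 1433 and 1940 CPM in pxf er erl2 and 1847, 1772 and 1238 CPM in pxf. It was 1478 to 1766 CPM in er erl2 and 1595 to 1805 CPM in wild type. Leaf transcripts ran the other way, at 8524, 9639 and 6128 CPM in pxf er erl2 and 6016, 5659 and 7557 CPM in pxf. The part of either list in the spread of the jasmonate genes was not tested.

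With pxf replicate 3 and pxf er erl2 replicate 3 both left out, an alternative added after these values were seen, more members passed. Of 32 members 19 passed in pxf er erl2 against wild type, 4 higher and 15 lower, beside 37.9% of all loci. In er erl2 against wild type 15 passed, 4 higher and 11 lower, beside 21.9%. Neither left-out library belongs to that comparison, but the model estimates the spread from all genotypes together. The log2 fold changes of AOS and OPR3 in er erl2 were -0.62 and -0.59 both with and without these libraries. In pxf 5 passed, beside 16.5%. The JAZ genes made up 8 of the 15 lower in pxf er erl2 and 6 of the 11 lower in er erl2, and the synthesis genes 6 and 4. JAZ10 then had a log2 fold change of -1.06 in pxf er erl2 (adjusted p = 0.0213), and AOS and OPR3 passed with -0.75 (0.00179) and -0.63 (0.00166). Since these libraries were picked for their values in the same genes, the counts describe the fit and give no separate evidence.

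**Figure D4:**
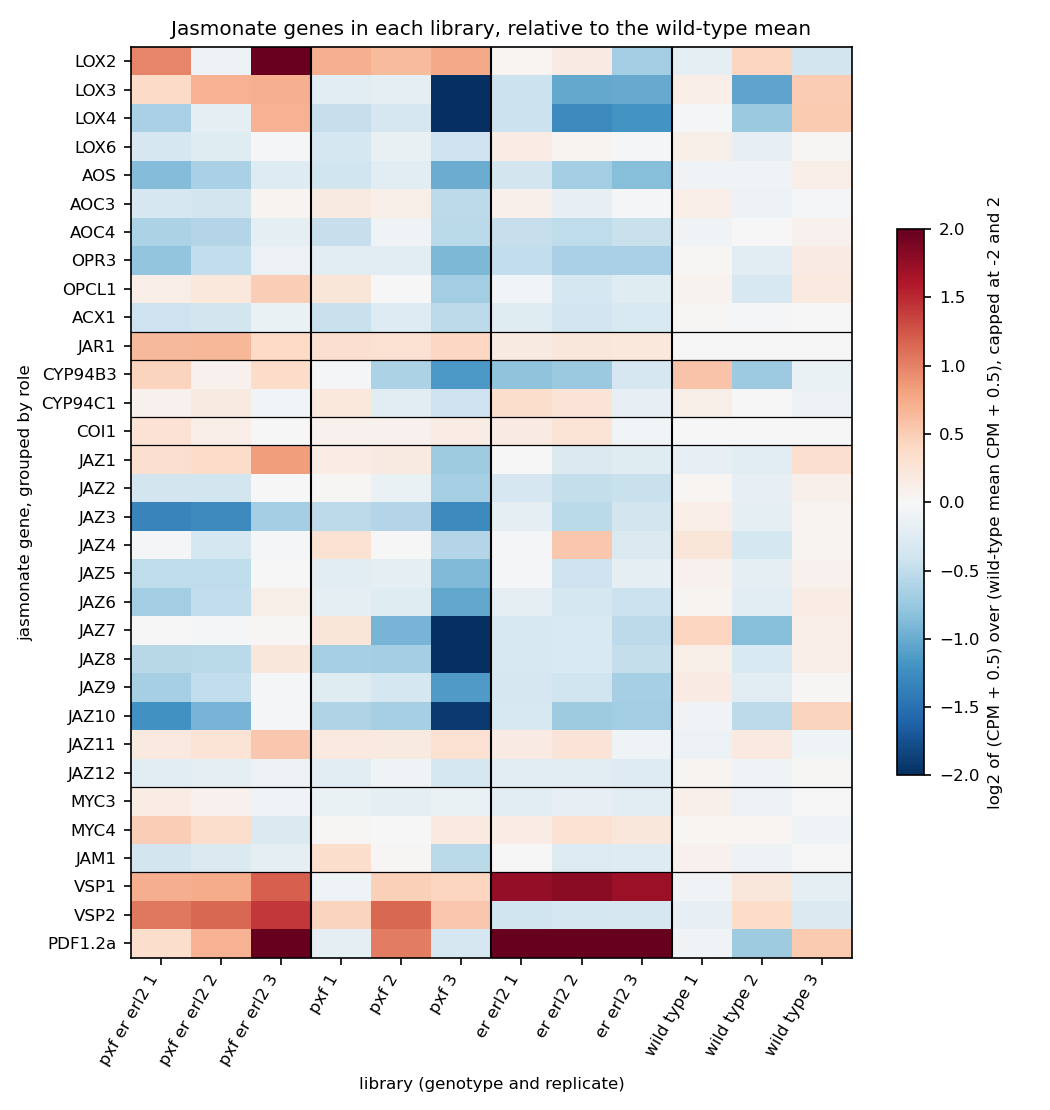
Heat map of the 32 tested jasmonate genes (down, grouped by role) in the 12 libraries (across), coloured by log2 of CPM + 0.5 over the wild-type mean + 0.5 and capped at -2 and 2. The third pxf er erl2 library is the reddest of its genotype in 12 of 12 JAZ genes, and the third pxf library is the bluest of its genotype in 11 of 12.

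MYC3 (AT5G46760), MYC4 (AT4G17880) and JAM1 (AT2G46510) were the bHLH genes with enough reads. MYC3 and MYC4 are activators of the response, and JAM1 is a repressor related to them. MYC3 had 93.7, 89.2 and 80.2 CPM in pxf er erl2, 76.7, 74.0 and 77.0 CPM in pxf and 73.0, 75.1 and 72.4 CPM in er erl2, against 90.7, 77.7 and 84.6 CPM in wild type. The double and triple mutants sat below wild type without a call, with log2 fold changes of -0.20 ± 0.07 in er erl2 (adjusted p = 0.064) and -0.15 ± 0.07 in pxf (adjusted p = 0.14). MYC4 ranged from 45.3 to 78.8 CPM and JAM1 from 110.2 to 203 CPM over the 12 libraries, and neither was called in any comparison.

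The quintuple mutant was next compared with each parent genotype. The comparison of pxf er erl2 with er erl2 removes PXY, PXL1 and PXL2 from plants without ER and ERL2, and 8 of 32 members were called, 5 higher and 3 lower. Of all loci 34.3% were called, 18.0% higher and 16.2% lower. VSP2 was higher (log2 fold change 1.57 ± 0.21, adjusted p = 0.000224), while VSP1 was lower (-0.85 ± 0.17, adjusted p = 0.00262). Both calls held in all 19 alternative fits. PDF1.2a was lower (-3.67 ± 0.82, adjusted p = 0.00704), and 10 of its 40 neighbours changed at least 4-fold. JAR1 was higher (0.37 ± 0.07, adjusted p = 0.00132) and JAZ3 lower (-0.71 ± 0.22, adjusted p = 0.0276).

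The remaining calls against er erl2 were smaller or less stable. The JAZ3 call ended when pxf er erl2 replicate 1 (adjusted p = 0.0946) or 2 (0.0966), or er erl2 replicate 1 (0.0892) or 3 (0.0637), was left out. MYC3 was higher (0.26 ± 0.07, adjusted p = 0.0121) and was lost without pxf er erl2 replicate 1 (0.0557). CYP94B3 was higher (0.99 ± 0.34, adjusted p = 0.045), with each pxf er erl2 library above each er erl2 library. Its call was lost without any library of either genotype (0.0511 to 0.13), and also without wild-type replicate 3 (0.0558) or pxf replicate 2 (0.0577). LOX2 was higher (1.67 ± 0.57, adjusted p = 0.0397), with overlapping groups. Without pxf er erl2 replicate 3 its log2 fold change was 0.88 (adjusted p = 0.195), and the call was also lost without pxf er erl2 replicate 1 (0.0607), any er erl2 library (0.0614 to 0.121), wild-type replicate 1 (0.0514) or any pxf library (0.0513 to 0.0532). The whole count was 5 without er erl2 replicate 1 or 3 and 4 without pxf er erl2 replicate 1.

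In pxf er erl2 against pxf, which removes ER and ERL2 from plants without PXY, PXL1 and PXL2, 1 of 32 members was called. The share of all loci was 10.5%, 5.07% higher and 5.41% lower. The call was VSP1, with 90.1, 91.5 and 125 CPM in pxf er erl2, against 51.2, 75.8 and 73.6 CPM in pxf (log2 fold change 0.61 ± 0.17, adjusted p = 0.0431). The groups did not overlap. The VSP1 call was lost in 9 of the 12 fits without 1 library, all except those lacking pxf replicate 2 or 1 of the wild-type replicates 2 and 3, with adjusted p of 0.0541 to 0.106. In these fits the count was 0, except for 1 other member, lower in pxf er erl2, without pxf replicate 3 and 3 other members without pxf er erl2 replicate 3. It was 2 without pxf replicate 2. LOX3 averaged 78.6 CPM in pxf er erl2 and 34.0 CPM in pxf with no overlap, but was not called (adjusted p = 0.165). PXY transcript itself was called higher in pxf er erl2 than in pxf (log2 fold change 1.76 ± 0.08, adjusted p = 1.1e-07). The part of PXY in this comparison was not tested.

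The interaction of the 2 receptor families asks whether removing ER and ERL2 acts differently in pxf than in wild-type plants; it is the log2 fold change of pxf er erl2 against pxf minus that of er erl2 against wild type. It was called for 3 of 32 members, 2 higher and 1 lower, beside 9.45% of all loci, 4.65% higher and 4.80% lower. VSP1 had -1.15 ± 0.24 (adjusted p = 0.0141): its log2 fold change was 0.61 ± 0.17 in the pxf background and 1.76 ± 0.17 in the wild-type background. This call held in all 18 alternative fits. MYC3 had 0.41 ± 0.10 (adjusted p = 0.0216), from 0.21 ± 0.07 in the pxf and -0.20 ± 0.07 in the wild-type background, and its call ended when pxf er erl2 replicate 1 (0.0535) or wild-type replicate 1 (0.0537) was left out. ACX1 had 0.41 ± 0.12 (adjusted p = 0.0498), from 0.10 ± 0.08 and -0.31 ± 0.08 in the same order. The ACX1 call was lost in 10 of the 12 fits without 1 library, all except those without pxf replicate 2 or pxf er erl2 replicate 1, with adjusted p of 0.0556 to 0.109. The count was 1 without wild-type replicate 1 and 6 without pxf replicate 2. For PDF1.2a the interaction of -4.32 ± 1.89 was not called (adjusted p = 0.188). Each genotype is a single line. The part of other differences between the lines in these interactions, PXY transcript among them, was not tested.

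**Figure D5:**
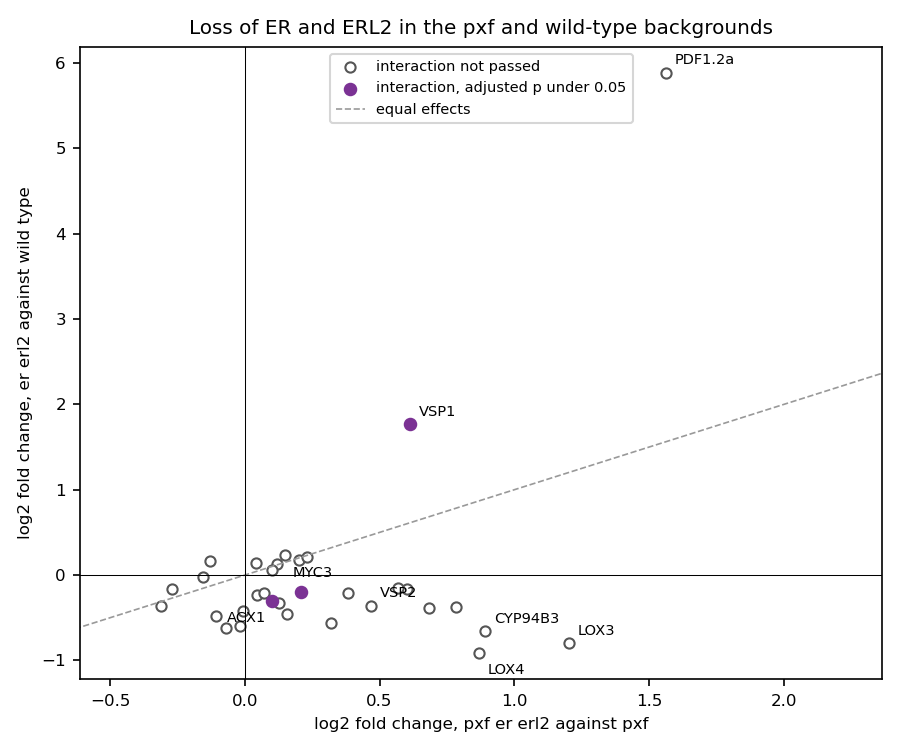
Log2 fold change on loss of ER and ERL2 in the pxf background (horizontal axis) and in the wild-type background (vertical axis) for the 32 tested jasmonate genes, with a dashed line where both are equal and filled points for a called interaction. VSP1 lies above the line (0.61 and 1.76), and MYC3 and ACX1 lie below it.

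Further genes of the pathway were counted from 5 lists with 41 loci, of which 31 were tested. Against wild type 3 were higher and 9 lower in pxf er erl2, 38.7% beside 36.3% of all loci. In pxf 1 was higher and 9 lower, 32.3% beside 21.0%, and in er erl2 2 were higher and 2 lower, 12.9% beside 18.8%, or 7 genes in all under DESeq2. The tyrosine aminotransferase gene TAT3, a jasmonate-induced gene, was much lower without PXY, PXL1 and PXL2. It had 9.83, 15.7 and 59.0 CPM in pxf er erl2 and 37.3, 108 and 37.2 CPM in pxf, against 532, 383 and 666 CPM in wild type. The log2 fold change was -4.23 ± 0.71 in pxf er erl2 (adjusted p = 0.00179) and -3.11 ± 0.67 in pxf (adjusted p = 0.0118). The ethylene response factor gene ERF1 was also lower, with means of 6.97 CPM in pxf er erl2 and 5.01 CPM in pxf, against 23.2 CPM in wild type (adjusted p = 0.00439 and 0.00276). The thionin gene THI2.1 had log2 fold changes of -2.91 ± 0.38 in pxf er erl2 and -2.38 ± 0.35 in pxf, and RAP2.6, another ERF-type gene, had -1.83 ± 0.47 and -2.45 ± 0.50. The NAC transcription factor gene ANAC055 went the other way, with 1.40, 1.21 and 2.79 CPM in pxf er erl2, against 0.190, 0.456 and 0.0849 CPM in wild type (log2 fold change 2.84 ± 0.70, adjusted p = 0.00682), on 1 to 33 counts per library. Of the 7 tested genes of its list of MYC-branch responses, edgeR called 1 higher and 2 lower in pxf er erl2, and DESeq2 2 higher and 2 lower. In er erl2 both methods called 0 of this list, which also holds TAT3, and 5 of the 7 estimates were negative. The list summed to 76.04 to 466.9 CPM in pxf er erl2 and 80.59 to 364.7 CPM in pxf. It summed to 291.8 to 500.6 CPM in er erl2, against 692 to 865.6 CPM in wild type.

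Of 8 further tested genes of turnover and transport, 4 (50%) were called lower in pxf er erl2 and 4 in pxf, beside 16.4% and 7.97% of all loci. Another 2 had positive estimates in pxf er erl2, up to 1.22, without a call. In er erl2 all 8 estimates were negative, and 2 (25%) were called lower, beside 8.44% of all loci. DESeq2 called 5 lower in er erl2, 4 in pxf er erl2 and 4 in pxf. ST2A, which sulfates hydroxyjasmonate, had 41.0, 40.5 and 95.1 CPM in pxf er erl2 and 60.1, 93.6 and 45.5 CPM in pxf, against 166, 160 and 179 CPM in wild type (log2 fold changes -1.52 ± 0.37 and -1.34 ± 0.37, adjusted p = 0.0113 and 0.0312). No mutant library reached the lowest wild-type value. The amidohydrolase gene ILL6 had -1.09 ± 0.33 and -1.12 ± 0.33, and AT5G05600 had -1.34 ± 0.33 and -1.45 ± 0.33. IAR3, an amidohydrolase related to ILL6, was lower in er erl2 as well, with 142, 124 and 116 CPM in er erl2, against 233, 208 and 254 CPM in wild type (-0.86 ± 0.20, adjusted p = 0.0148). Its interaction was 1.09 ± 0.29 (adjusted p = 0.0407). CYP94B1 was lower in er erl2 (-2.41 ± 0.73, adjusted p = 0.0355) on few counts and with overlapping groups.

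The second acyl-CoA oxidase gene, ACX5, went opposite to ACX1. It had 19.1, 21.1 and 17.2 CPM in pxf er erl2, 14.7, 15.3 and 17.0 CPM in pxf and 16.1, 12.6 and 14.0 CPM in er erl2, against 8.82, 11.1 and 9.94 CPM in wild type. Every mutant library was above every wild-type library, with log2 fold changes of 0.94 ± 0.13, 0.65 ± 0.13 and 0.51 ± 0.13 (adjusted p = 0.000104, 0.00346 and 0.0149). Among the regulators, NINJA, the adaptor between JAZ proteins and the co-repressor TPL, was lower in pxf er erl2 (-0.32 ± 0.06) and pxf (-0.28 ± 0.06), and TPL was higher in er erl2 (0.24 ± 0.06). Against pxf, no gene of the 5 lists was called in pxf er erl2 by edgeR or by DESeq2, and 3 of 31 had an unadjusted p under 0.05. Against er erl2, 5 were higher and 4 lower, 29% beside 34.3% of all loci.

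MYC2 (AT1G32640), the best known factor of the pathway, was listed at 0 counts in all 12 libraries. In the RefSeq annotation 3241 of its 3289 exon bases, 98.5%, overlap those of AT1G32630 on the other strand, a locus that held 391 counts over the 12 libraries. Of the 487 protein-coding genes with at least 95% of their exon bases shared with another gene, 439 were at 0 in every library, against 2844 of the 19821 that share none. The 0 therefore gives no level of MYC2 in these plants, and the way the reads of overlapping genes were assigned is not given in the sources used here. AOC1 held 0 to 6 counts and AOC2 3 to 16 counts per library, and AOC1 shares 24 stretches of 50 bases, 2.1% of its own, with AOC3.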

How the data were processed

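The deposited files hold whole-number counts per locus, 1 file per library, as the authors made them. The submitters' processing notes name HISAT2 2.0.5, featureCounts 1.5.0-p3 and build TAIR10, without giving their options or the handling of strand, and the files hold no coordinates. Names, coordinates and sequences were looked up by locus code in the RefSeq annotation of TAIR10.1, in which all 35 members were found.

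Counts were filtered with filterByExpr (minimum count 10), which kept 19236 loci with 99.9% of counts, and scaled by TMM (factors 0.985 to 1.011). One edgeR 4.0.16 quasi-likelihood model (R 4.3.3) with a term per genotype was fitted to all 12 libraries, with common biological variation of 11.6%, and p-values were adjusted by Benjamini-Hochberg over all tested loci in each of 6 contrasts. Values are TMM-scaled CPM, and totals of 10507590 to 14716123 counts limit the precision of genes with few reads. The steps were tested on simulated data. Alternatives were RLE size factors, library totals, DESeq2 1.42.0, no filter, the compared genotypes alone, a replicate block and leaving out libraries.

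Members and lists were chosen with earlier results of these data known. Values in every library are given for members called at least once. Of the other lists, at most the 3 largest calls per list and contrast are named. Deviations of same-numbered replicates correlated at -0.401 to 0.293 over 18 pairs, 5 of them over 0.1, so the numbers were not taken to pair the 4 genotypes. All 3 pairs of pxf er erl2 with wild type were over 0.1 (0.124 to 0.293). Between replicates, a chi-square test over genes gave 3.27 to 18.7 per degree of freedom, so none repeats another; the 2 highest values involve pxf er erl2 replicate 3.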

Additional observations from a re-analysis of the deposited data

Results flagged for a closer look

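The change in lines lacking ER and ERL2 differed between the pxf and the wild-type background for 3 jasmonate genes (edgeR's interaction test). The difference on the log2 scale, pxf background minus wild-type background, was -1.15 for VSP1, 0.41 for MYC3 and 0.41 for ACX1. The VSP1 difference passed in all 18 alternative fits, and the other 2 did not. Each genotype is a single line, and the part of other differences between the lines in these values was not tested.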

How the results depend on the processing

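Of 29 calls, 13 held in every alternative fit, 16 were lost in at least 1 and 0 reversed, while 47 of 163 pairs without a call passed somewhere. Held calls were ACX1 and JAR1 in pxf, JAR1, JAZ3, VSP1 and VSP2 in pxf er erl2 and VSP1 and PDF1.2a in er erl2, each against wild type, JAR1, VSP1, VSP2 and PDF1.2a in pxf er erl2 against er erl2, and the VSP1 interaction. In er erl2 against wild type, 5 members passed, with 8 under DESeq2, 11 with only the compared genotypes and 15 with replicate 3 of both pxf and pxf er erl2 left out. In pxf, the replicate block left 3 of 6. In pxf er erl2 against wild type, leaving out both replicate 3 libraries gave 19 instead of 6. In pxf er erl2 against pxf, 1 member passed, with 2 under RLE size factors and under DESeq2, 0 without a filter or with only the compared genotypes, and 6 without both replicate 3 libraries. DESeq2 gave 5 interactions instead of 3. With 1 library left out, counts against wild type ran from 4 to 11 for pxf er erl2, from 2 to 8 for pxf and from 2 to 10 for er erl2. For pxf er erl2 they ran from 0 to 3 against pxf and from 4 to 10 against er erl2, and interactions from 1 to 6. The interaction could not be fitted with only the compared genotypes, as it uses all 4. The cause of these shifts was not tested. The replicate block changed 5 calls, ending those of LOX6, JAZ3 and JAZ12 in pxf, of LOX2 against er erl2 and of the ACX1 interaction. It changed no member call in pxf er erl2 against wild type, the 1 comparison whose same-numbered libraries all correlated over 0.1.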

Other observations

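Of 17 genes of wounding and touch outside the jasmonate pathway, 3 (17.6%) were called in pxf er erl2 against wild type, 2 higher and 1 lower, beside 36.3% of all loci. In pxf 2 (11.8%) were called, both higher, beside 21.0%, and DESeq2 called 4, 3 higher and 1 lower. In er erl2 edgeR called 0 and DESeq2 called 1, and 3 had an unadjusted p under 0.05. Among the called genes, CBF3, a cold-response regulator, was higher by 1.01 in pxf er erl2 and 1.23 in pxf on the log2 scale, and ERF104 by 0.90 and 0.78. ZAT12, a zinc finger gene of oxidative stress listed as RHL41, fell by 0.86 in pxf er erl2.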
